A study of Saccharomyces cerevisiae with 8 samples.

Results

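The 10 genes described here carry inorganic sulfate into the yeast cell and reduce it, or supply the partners of that reduction. They were taken by identifier for these roles, by a rule that uses no measured value, and are 10 of the 11966 features in the deposited table. SUL1 (YBR294W) and SUL2 (YLR092W) encode the sulfate permeases. MET3 (YJR010W, ATP sulfurylase), MET14 (YKL001C, adenylylsulfate kinase) and MET16 (YPR167C, PAPS reductase) turn sulfate into sulfite. MET5 (YJR137C) and MET10 (YFR030W) encode the beta and alpha subunits of sulfite reductase. MET1 (YKR069W) and MET8 (YBR213W) make siroheme, the cofactor of that enzyme, and MET2 (YNL277W) encodes homoserine O-acetyltransferase, which makes the carbon acceptor for sulfide.

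Total RNA of Saccharomyces cerevisiae, depleted of ribosomal RNA, was sequenced in 8 libraries, 2 in each of 4 groups. The groups were upf1 with anisomycin (ANS), upf1 with DMSO, WT with ANS and WT with DMSO. WT was BY4741 (MATa his3Δ1 leu2Δ0 met15Δ0 ura3Δ0), a laboratory strain, and upf1 carried in addition a kanMX4 deletion of UPF1. Cells grew in YPD at 30 °C to mid-log phase and received ANS at 100 µg/ml, or the same volume of DMSO, for 30 minutes. ANS binds the ribosome and blocks elongation. Upf1 is an RNA helicase required for nonsense-mediated decay (NMD), the pathway that removes mRNAs on which translation ends early. All 4 groups carry met15Δ0, which removes the enzyme known for joining sulfide to O-acetylhomoserine, and that gene was not analysed here. Nothing in the labels says whether the replicates were separate cultures, so the p-values measure the spread between these libraries only.

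In yeast, sulfate is activated with ATP in successive steps, reduced to sulfite and then to sulfide, and sulfide is built into homocysteine, from which methionine, cysteine and S-adenosylmethionine derive. The genes are known to be switched on by the activator Met4, which has no DNA-binding specificity of its own and is placed on promoters by Cbf1 or by Met31 and Met32. When sulfur amino acids are plentiful, as in rich medium, the ubiquitin ligase subunit Met30 holds Met4 inactive.

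The sites named for these activators are shown here for the window searched. In that window, 3 of the 6 genes called between the strains in DMSO hold them (MET10, MET14 and MET16). The other 3 hold none there (MET1, MET3 and MET2), and of these MET1 is printed. The hexamers CACGTG (the Cbf1 site), TGTGGC (core of the Met31 and Met32 site) and TGACTC (the Gcn4 site) were searched on both strands, from 250 bases before to 50 bases after the A of each start codon, in the R64 RefSeq genome. The sequences give bases 250 to 101 before the start codon on the coding strand, with every searched hexamer in capitals, and 30 bases around the only hit of MET8. MET10 lies at chrVI:213062-213211 on the plus strand, MET14 at chrXI:439486-439635 on the minus strand, MET16 at chrXVI:877733-877882 on the minus strand, MET1 at chrXI:571362-571511 on the plus strand and MET8 at chrII:650147-650176 on the plus strand.
MET10: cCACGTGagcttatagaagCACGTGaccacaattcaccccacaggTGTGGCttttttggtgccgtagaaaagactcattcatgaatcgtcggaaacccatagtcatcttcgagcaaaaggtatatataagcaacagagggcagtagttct
MET14: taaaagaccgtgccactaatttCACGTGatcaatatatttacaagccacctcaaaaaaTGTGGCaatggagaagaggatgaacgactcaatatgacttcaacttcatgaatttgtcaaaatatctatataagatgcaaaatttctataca
MET16: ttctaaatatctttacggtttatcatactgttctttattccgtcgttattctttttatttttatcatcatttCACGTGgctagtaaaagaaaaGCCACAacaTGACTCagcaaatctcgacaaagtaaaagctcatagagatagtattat
MET1: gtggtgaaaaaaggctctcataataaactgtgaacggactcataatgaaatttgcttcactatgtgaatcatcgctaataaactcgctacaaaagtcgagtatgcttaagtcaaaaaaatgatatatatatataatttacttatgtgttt
MET8: gcgtcataatttCACGTGttataatagcca

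MET10, MET14 and MET16 held both CACGTG and TGTGGC, and MET10 held CACGTG at 2 places. CACGTG was in the window of 4 of the 10 genes and in 2.91% of the windows of 6020 genes. TGTGGC was in 3 of the 10 and in 7.81% of all windows, and TGACTC in 2 of the 10 (MET16 and MET5) and in 7.96% of all. Hits of different hexamers did not overlap. MET1 held none of the 3 hexamers, nor did SUL1, SUL2, MET3 and MET2. Bases farther upstream were not searched, so any site there is not counted. A match describes the letters only.

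The table gives densities, reads per nucleotide after a scaling by the authors whose basis is not stated in the sources used here. In every library the densities resolved into whole reads, 6964328 to 12015810 per library. UPF1, listed as NAM7, had densities of 0.0113 and 0.00975 in upf1 with DMSO, against 0.432 and 0.449 in WT with DMSO. It had 0.0210 and 0.0244 in upf1 with ANS, against 1.24 and 1.59 in WT with ANS, so each library went with its genotype label. LEU2 and URA3, deleted in all strains, had at most 2 reads in any library. On the deposited scale the median protein-coding gene was 1.72 higher (log2) with ANS than with DMSO in WT and 1.43 higher in upf1. Changes are therefore given on that scale and also relative to protein-coding genes, that is, after each library was divided by its median ratio over protein-coding genes. Densities are printed as deposited, and log2 changes are the relative ones unless the deposited scale is named. In RNA from whole cultures a change in a few cells and a smaller change in all cells cannot be told apart.

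In WT with DMSO the genes covered a wide range of levels. MET5 had the highest mean density at 0.194 ± 0.00345 (SD, n = 2, as for all means here), at the 60.3 percentile of protein-coding genes. MET14 at 0.178 ± 0.00504 and MET10 at 0.174 ± 0.00268 followed and did not differ beyond their spread. MET3, at 0.0920 ± 0.0117, stood below these. The siroheme gene MET1 had only 0.0372 ± 0.00508, at the 16.8 percentile, and MET16 followed at 0.0296 ± 0.00474. The lower library of MET1 (0.0336) was just above the higher library of MET16 (0.0329). MET2 lay between MET3 and MET1 with 0.0498 ± 0.00689. SUL2 (0.0145 ± 0.00151) and MET8 (0.0119 ± 0.00588) overlapped, and SUL1 was close to the limit of detection with 1 read and 6 reads in the 2 libraries.

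The order differed in upf1 with DMSO. MET10 led with 0.436 ± 0.0134, at the 78.8 percentile, followed by MET14 (0.339 ± 0.0565) and MET5 (0.268 ± 0.0292). MET1 stood at 0.219 ± 0.0280, at the 58.5 percentile, next to MET3 at 0.191 ± 0.00132, and these neighbours differed by about the spread of MET1. MET16 (0.0646 ± 0.00533), MET2 (0.0251 ± 0.00252), SUL2 (0.0206 ± 0.00237), MET8 (0.0123 ± 0.000593) and SUL1 (0.00300 ± 0.000861) closed the order.

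Under ANS the same 3 genes, MET10, MET14 and MET5, led in both strains. In upf1 with ANS, MET10 had 1.10 ± 0.0580, MET14 0.745 ± 0.108 and MET5 0.525 ± 0.0421, and no neighbours in the order of the 10 genes overlapped. In WT with ANS, MET10 had 0.814 ± 0.193 and overlapped with MET14 at 0.682 ± 0.0163, and MET5 had 0.525 ± 0.116. There MET3 overlapped with MET1, MET2 with MET8 and MET8 with SUL2.

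**Figure D1:**
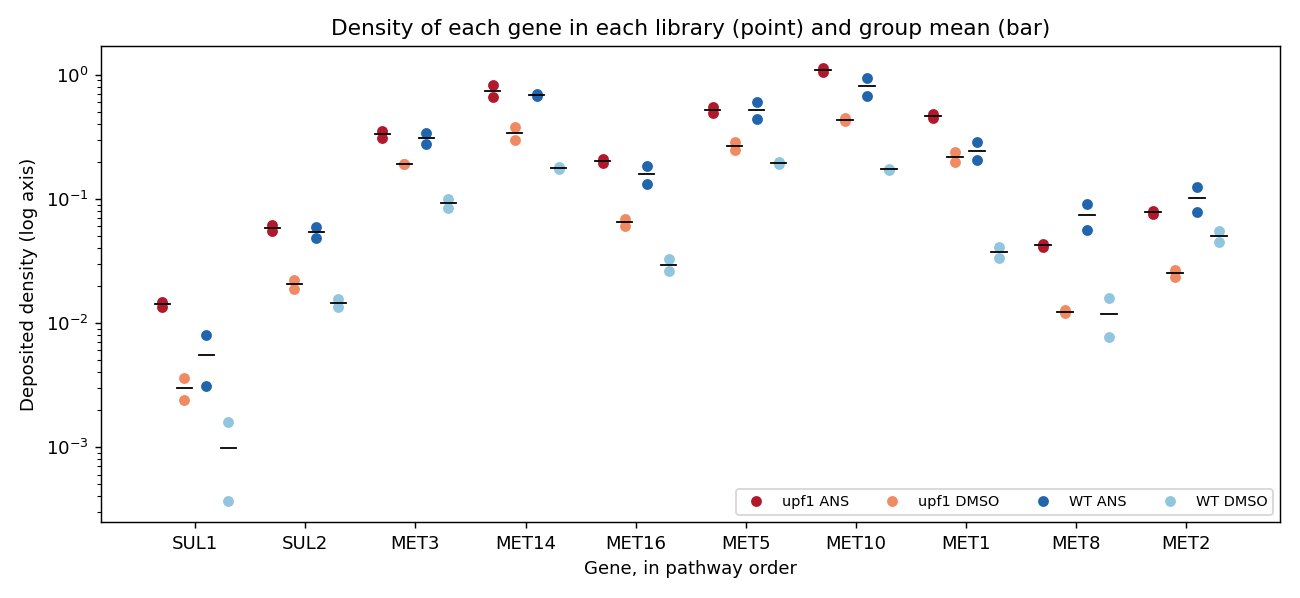
Deposited density (log axis) of the 10 genes in pathway order, with 1 point per library and a bar at the mean of the 2 libraries of each group. MET1 shows the widest gap between upf1 with DMSO (0.239 and 0.199) and WT with DMSO (0.0336 and 0.0408), while MET2 is the gene with lower points in upf1 with DMSO than in WT with DMSO.

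In DMSO, upf1 cells had more RNA from some steps of the pathway than WT cells. Of the 10 genes, 5 rose in upf1 with DMSO relative to WT with DMSO (MET1, MET10, MET16, MET3 and MET14), and 1 fell (MET2). Over all 11579 features tested, 30.9% were called higher and 16.4% lower in this comparison, and over protein-coding genes alone 21.7% and 29.6%. The same 5 genes were called higher and the same gene lower on the deposited scale, where 31.6% of all features were called higher and 0.613% lower. The median change of the 10 genes was 0.66 (log2), against 0.14 for all features tested and -0.13 for protein-coding genes.

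MET1, the siroheme methyltransferase gene, moved most. Its density was 0.239 and 0.199 in upf1 with DMSO, against 0.0336 and 0.0408 in WT with DMSO, so the groups were far apart. The log2 change was 2.25 ± 0.12 (SE), a 4.77-fold rise, with an adjusted p of 2.31e-05 (limma). That change was at the 98.7 percentile of protein-coding genes. MET8, the gene for the enzyme that completes siroheme, had 0.0128 and 0.0119 in upf1 with DMSO, against 0.0160 and 0.00771 in WT with DMSO, and the groups overlapped. Its change of -0.10 ± 0.31 did not pass the test, on 42 reads in upf1 with DMSO and 30 in WT with DMSO.

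The subunits of sulfite reductase differed from each other in the same way. MET10 had 0.445 and 0.426 in upf1 with DMSO, against 0.172 and 0.175 in WT with DMSO, a log2 change of 1.07 ± 0.07 (adjusted p = 4.81e-05, limma). MET5 had 0.289 and 0.248 in upf1 with DMSO, against 0.196 and 0.192 in WT with DMSO, and its change of 0.21 ± 0.08 missed the threshold (adjusted p = 0.0542, limma), although the libraries of the 2 groups did not overlap. On the deposited scale MET5 missed it too but was called higher without either WT library with ANS (adjusted p = 0.0216 and 0.0217) and with only the libraries compared (0.0368), and scaling on the total density gave 0.50 (0.00725).

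The 3 enzymes upstream of sulfite moved by similar amounts. MET16 had 0.0684 and 0.0608 in upf1 with DMSO, against 0.0329 and 0.0262 in WT with DMSO (log2 change 0.85 ± 0.14, adjusted p = 0.00241, limma). For MET3 the values were 0.192 and 0.190 in upf1 with DMSO, against 0.0838 and 0.100 in WT with DMSO (0.80 ± 0.11, adjusted p = 0.000912). MET14 had 0.379 and 0.299 in upf1 with DMSO, against 0.175 and 0.182 in WT with DMSO (0.66 ± 0.12, adjusted p = 0.00437). In each of these 3 genes both upf1 libraries lay above both WT libraries.

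The permeases gave no call. SUL2 had 0.0223 and 0.0189 in upf1 with DMSO, against 0.0134 and 0.0155 in WT with DMSO, a change of 0.23. SUL1 had 25 reads in upf1 with DMSO and 7 in WT with DMSO, and its fitted change of 0.66 (adjusted p = 0.148, limma) depends on the pseudocount at these counts. MET2 went the other way, with 0.0234 and 0.0269 in upf1 with DMSO, against 0.0547 and 0.0450 in WT with DMSO. Its log2 change was -1.17 ± 0.19 (adjusted p = 0.00262, limma), at the 0.340 percentile of protein-coding genes. All 6 calls relative to protein-coding genes stood when any 1 library was left out, and on the deposited scale that of MET2 was lost (adjusted p = 0.0512 to 0.116) without WT with DMSO replicate 1 or without either upf1 library with DMSO.

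Under ANS fewer of these genes were called between the strains, as was so for all features. Of the 10, 2 were higher in upf1 with ANS than in WT with ANS (MET1 and MET10) and 0 were lower (4 and 1 at an unadjusted p under 0.05, limma), where 5.39% of all features were called higher and 1.92% lower. On the deposited scale 1 was higher (MET1) and 0 lower (3 and 1 unadjusted), against 2.69% and 0.216% of all features. The median change of the 10 genes was 0.09, against 0.08 for all features tested and -0.04 for protein-coding genes. Of protein-coding genes alone, 4.98% were called higher and 3.61% lower on the relative scale. MET1 had 0.479 and 0.452 in upf1 with ANS, against 0.205 and 0.285 in WT with ANS, a log2 change of 0.90 ± 0.12 (adjusted p = 0.00973, limma). MET10 had 1.14 and 1.06 in upf1 with ANS, against 0.678 and 0.951 in WT with ANS, a log2 change of 0.42 ± 0.07 (adjusted p = 0.0190, limma). In both genes the 2 strains did not overlap. Both calls were lost without WT with ANS replicate 1 and without either upf1 library with ANS: the adjusted p was then 0.0583 to 0.0944 for MET1 and 0.0808 to 0.141 for MET10. As deposited, the call of MET1 was lost without any of these and without either upf1 library with DMSO (0.0722 to 0.295).

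The other genes had relative changes from -0.72 (MET8) to 0.85 (SUL1) in upf1 with ANS against WT with ANS, and none passed the test. MET3 had 0.353 and 0.310 in upf1 with ANS, against 0.279 and 0.339 in WT with ANS, and MET14 had 0.822 and 0.668 in upf1 with ANS, against 0.671 and 0.694 in WT with ANS. MET3 and MET14, which differed between the strains in DMSO, had overlapping deposited densities under ANS. After the relative scaling MET14 still overlapped, but MET3 had 0.191 and 0.185 in upf1 against 0.183 and 0.175 in WT. MET16, also called in DMSO, had deposited densities of 0.211 and 0.194 in upf1 with ANS, against 0.133 and 0.184 in WT with ANS. It did not overlap on either scale, and its relative change was 0.33 (adjusted p = 0.189, limma).

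All 10 genes were higher in WT with ANS than in WT with DMSO on the deposited scale, with log2 changes of 0.94 (MET2) to 2.60 (MET1), where 90.2% of all features were called higher and 0.345% lower. This count is near that of all features. The call of SUL1 was lost without WT with DMSO replicate 1 (adjusted p = 0.156) or WT with ANS replicate 2 (0.141), and with scaling on the total density those of SUL1 (0.0986) and MET2 (0.282) were lost. On the relative scale 4 genes rose (MET1, MET8, MET16 and MET10) and 2 fell (MET2 and MET5), where 35.8% of all features were called higher and 19.3% lower. The median relative change of the 10 genes was 0.27, against 0.29 for all features tested and 0.07 for protein-coding genes. Of protein-coding genes alone, 33.6% were called higher and 29.9% lower on the relative scale.

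MET1 had 0.205 and 0.285 in WT with ANS, against 0.0336 and 0.0408 in WT with DMSO, a relative log2 change of 0.97 ± 0.12 (adjusted p = 0.000463, limma). MET16 had 0.133 and 0.184 in WT with ANS, against 0.0329 and 0.0262 in WT with DMSO (0.67 ± 0.14, adjusted p = 0.00519). MET10 had 0.678 and 0.951 in WT with ANS, against 0.172 and 0.175 in WT with DMSO (0.50 ± 0.07, adjusted p = 0.00103). In these 3 genes, which were also among those that rose in upf1 with DMSO, both ANS libraries lay above both DMSO libraries on either scale. The comparisons share the WT with DMSO libraries, so their values are not independent of each other.

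MET8 had 0.0564 and 0.0912 in WT with ANS, against 0.0160 and 0.00771 in WT with DMSO (relative change 0.87 ± 0.31, adjusted p = 0.0441, limma), and this call was lost in 7 of the 8 fits that left out a library, with a change of 0.42 without WT with DMSO replicate 2. MET5 had 0.443 and 0.606 in WT with ANS, against 0.196 and 0.192 in WT with DMSO, a relative change of -0.28 ± 0.08 (adjusted p = 0.0163). MET2 had 0.0777 and 0.124 in WT with ANS, against 0.0547 and 0.0450 in WT with DMSO, a relative change of -0.68 ± 0.19 (adjusted p = 0.0202). MET5 and MET2 thus gained density with ANS but less than the median protein-coding gene. Both falls were lost without WT with DMSO replicate 1 (adjusted p = 0.0686 for MET5 and 0.0916 for MET2) or WT with ANS replicate 1 (0.0797 and 0.113), and scaling on the total density turned them to 0.66 and 0.23. SUL1, SUL2, MET3 and MET14 had relative changes of 0.04 to 0.31 and were not called.

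In upf1 too, all 10 genes were higher with ANS than with DMSO on the deposited scale, by 0.78 (MET3) to 1.60 (MET16), where 88.7% of all features were called higher and 0.268% lower. On the relative scale 0 rose and 3 fell (MET3, MET5 and MET1; 0 and 4 at an unadjusted p under 0.05, limma), where 17.4% of all features were called higher and 18.3% lower. The median relative change was -0.06, against 0.02 for all features tested and -0.02 for protein-coding genes. Of protein-coding genes alone, 24.2% were called higher and 27.2% lower on the relative scale, so the number lower was near that share. MET3 had 0.353 and 0.310 in upf1 with ANS, against 0.192 and 0.190 in upf1 with DMSO, a relative log2 change of -0.69 ± 0.11 (adjusted p = 0.00235, limma). MET5 had 0.555 and 0.495 in upf1 with ANS, against 0.289 and 0.248 in upf1 with DMSO (-0.51 ± 0.08, adjusted p = 0.00205). Both gained less density with ANS than the median protein-coding gene. MET1 had 0.479 and 0.452 in upf1 with ANS, against 0.239 and 0.199 in upf1 with DMSO (-0.39 ± 0.12, adjusted p = 0.0374), a call lost without any 1 of the 4 upf1 libraries (adjusted p = 0.0783 to 0.186). Scaled on the total density the changes of MET3, MET5 and MET1 were 0.029, 0.21 and 0.33.

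The response to ANS differed between the strains for 3 of the 10 genes. The interaction is the log2 change with ANS in upf1 minus that in WT. It was lower for MET1 (-1.36 ± 0.17, adjusted p = 0.00464, limma), MET3 (-0.73 ± 0.15, adjusted p = 0.0244) and MET10 (-0.65 ± 0.10, adjusted p = 0.00974), and higher for 0 of the 10, with 5 lower and 1 higher at an unadjusted p under 0.05. Of all features, 0.717% were called higher and 10.4% lower. On the deposited scale 0 were higher and 2 lower (MET1 and MET3; 0 and 5 unadjusted), against 0.19% and 8.36% of all features. The median interaction of the 10 genes was -0.54, against -0.08 for all features tested and 0.06 for protein-coding genes. Of protein-coding genes alone, 1.04% were called higher and 8.88% lower on the relative scale. The relative call of MET1 stood in all fits that left out a library, and its call on the deposited scale was lost without upf1 with DMSO replicate 1 (0.0769) or either upf1 library with ANS (0.0558 and 0.0927). That of MET3 was lost when any 1 of the ANS libraries or of the upf1 libraries with DMSO was left out (adjusted p = 0.0601 to 0.0963), and as deposited in 7 of the 8 such fits (0.0607 to 0.208). That of MET10 was lost without upf1 with DMSO replicate 2 (0.0510) or upf1 with ANS replicate 1 (0.0527).

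**Figure D2:**
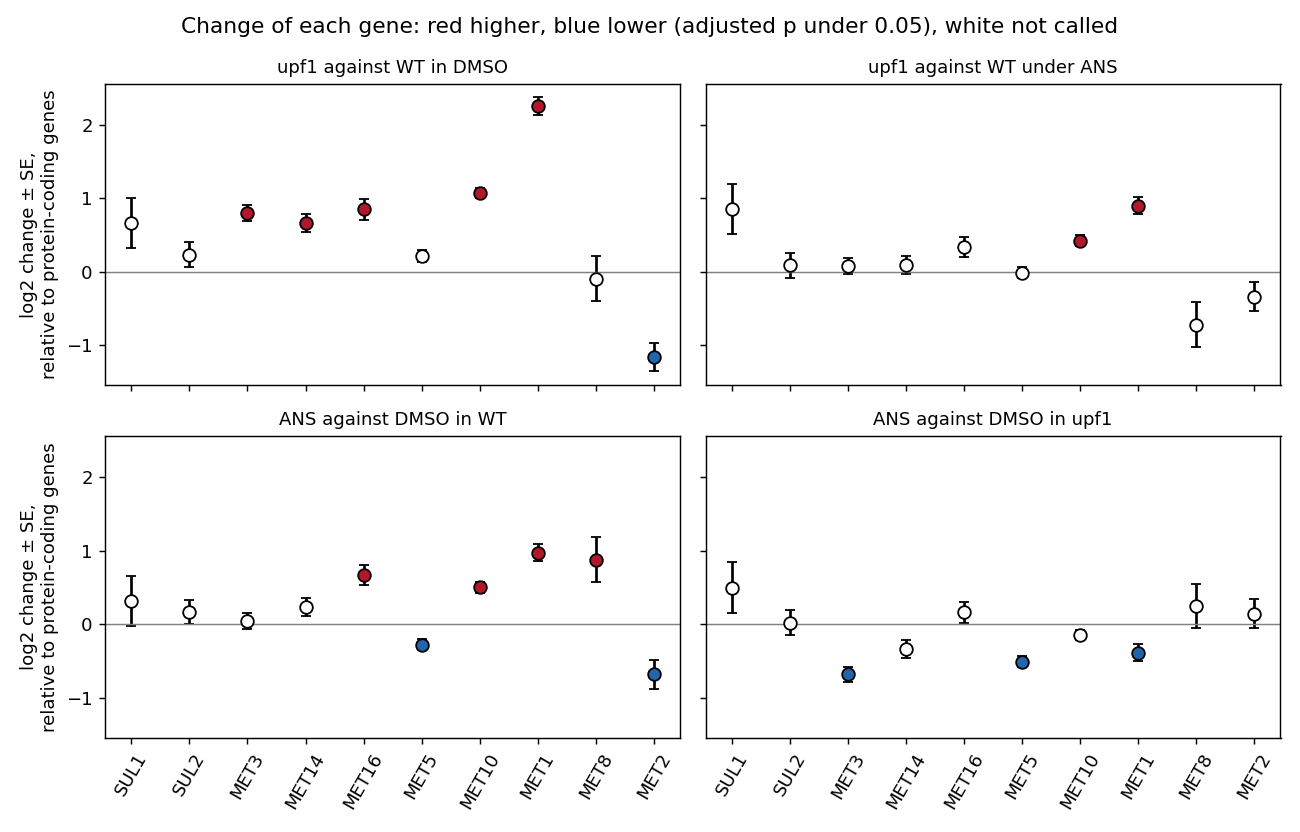
Log2 change ± SE relative to protein-coding genes, from the fit to all 8 libraries, for each of the 10 genes in the 4 comparisons, with filled points for calls at an adjusted p under 0.05. MET1 stands at 2.25 in upf1 against WT in DMSO and at 0.90 under ANS, and 3 points are below 0 and called for ANS in upf1.

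Ratios of densities within a library do not depend on the scaling between libraries, and 5 were formed between neighbouring steps after the values had been seen. The intervals are 95% intervals from the pooled spread within the 4 groups. The ratio of the sulfite reductase subunits, MET10 over MET5, was 2.06 and 2.14 in upf1 with ANS, 1.54 and 1.72 in upf1 with DMSO, 1.53 and 1.57 in WT with ANS, and 0.874 and 0.916 in WT with DMSO. WT with DMSO had the lowest values and upf1 with ANS the highest, with upf1 with DMSO and WT with ANS overlapping between them. The log2 difference was 0.86 (0.68 to 1.05) for upf1 against WT in DMSO and 0.79 (0.61 to 0.97) for ANS against DMSO in WT. It was 0.44 (0.26 to 0.62) for upf1 against WT under ANS and 0.37 (0.19 to 0.55) for ANS against DMSO in upf1.

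The ratio of the siroheme genes, MET1 over MET8, was 11.1 and 11.0 in upf1 with ANS, 18.7 and 16.7 in upf1 with DMSO, 3.63 and 3.13 in WT with ANS, and 2.10 and 5.29 in WT with DMSO. The values in upf1 lay above those in WT under either treatment. The log2 difference between the strains was 2.41 (1.07 to 3.74) in DMSO and 1.72 (0.38 to 3.05) under ANS, and the intervals for ANS against DMSO included 0 in both strains. The 2 libraries of WT with DMSO differed most in this ratio.

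Along the path to sulfite the ratios gave intervals wider than those of MET10 over MET5 but narrower than those of MET1 over MET8. Those of MET14 over MET3 and of MET16 over MET14 included 0 in all 5 contrasts, which does not show that the ratios were equal: for upf1 against WT in DMSO that of MET14 over MET3 ran from -0.60 to 0.31. SUL2 over MET3, permease over first enzyme, was 0.173 and 0.179 in upf1 with ANS, 0.116 and 0.0993 in upf1 with DMSO, 0.173 and 0.174 in WT with ANS, and 0.160 and 0.155 in WT with DMSO. Here upf1 with DMSO stood below the other 3 groups, with a log2 difference of -0.56 (-0.78 to -0.33) from WT with DMSO and 0.71 (0.49 to 0.94) for ANS against DMSO in upf1.

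**Figure D3:**
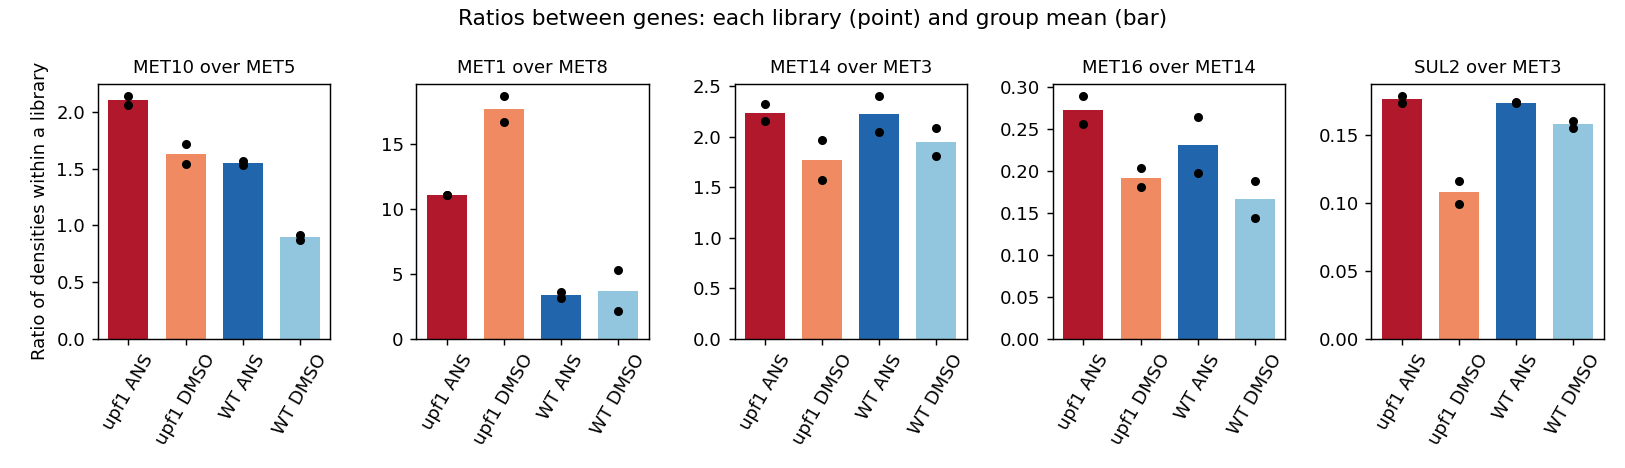
Ratio of the densities of 2 genes within each library (points) and its mean over the 2 libraries of a group (bars from 0), for 5 gene pairs. MET10 over MET5 was 0.874 and 0.916 in WT with DMSO and higher in the other 3 groups, and MET1 over MET8 was higher in both upf1 groups than in both WT groups.

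Among the 6 regulators of sulfur genes, 0 were called in upf1 against WT in DMSO (limma), and 0 had an unadjusted p under 0.05 there. Of all features, 30.9% were called higher and 16.4% lower in that comparison. MET4, the activator, had 0.126 and 0.147 in upf1 with DMSO, against 0.121 and 0.138 in WT with DMSO. MET30, its ubiquitin ligase subunit, had 0.106 and 0.112 in upf1 with DMSO, against 0.121 and 0.106 in WT with DMSO. CBF1 had 0.247 and 0.205 in upf1 with DMSO, against 0.219 and 0.187 in WT with DMSO. The groups overlapped in these 3 genes and in MET28 on the deposited scale. They did not overlap there in MET31, with 0.169 and 0.185 in upf1 with DMSO, against 0.124 and 0.152 in WT with DMSO. Nor did they in MET32, with 0.0159 and 0.0143 in upf1 with DMSO, against 0.0140 and 0.00929 in WT with DMSO. After each library was divided by its median ratio, both upf1 values of MET30 lay below both WT values. MET31, MET32 and the cofactor gene MET28 had relative changes of 0.11, 0.13 and -0.11, and the median of the 6 was -0.10. The lowest of the 6 relative changes was that of MET30 at -0.29. With ANS, CBF1 rose relative to protein-coding genes in WT (0.94, adjusted p = 0.000471, limma) and in upf1 (0.46, adjusted p = 0.0175), as did MET31 (0.47, adjusted p = 0.0201, and 0.49, adjusted p = 0.0251). CBF1 was lower in upf1 with ANS than in WT with ANS (-0.57, adjusted p = 0.0299, limma), which was not called on the deposited scale (-0.54, adjusted p = 0.178). A called interaction was found for 0 of the 6, with 1 (CBF1, lower) at an unadjusted p under 0.05. Of all features, 0.717% were called higher and 10.4% lower in the interaction.

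Of 10 genes for the uptake and use of organic sulfur, 5 were higher and 5 lower in upf1 with DMSO than in WT with DMSO, where 30.9% and 16.4% of all features were called. As deposited, 5 were higher and 0 lower, where the shares were 31.6% and 0.613%. JLP1, the sulfonate dioxygenase that frees sulfite, had 0.0487 and 0.0593 in upf1 with DMSO, against 0.00588 and 0.00566 in WT with DMSO (log2 change 2.64 ± 0.18, adjusted p = 5.21e-05, limma). Its values in WT with DMSO rest on 9 and 12 reads. BDS1, an alkyl and aryl sulfatase, had 0.192 and 0.197 in upf1 with DMSO, against 0.0374 and 0.0404 in WT with DMSO (2.02 ± 0.11, adjusted p = 2.48e-05). YCT1, the cysteine transporter, had 0.125 and 0.121 in upf1 with DMSO, against 0.0438 and 0.0368 in WT with DMSO (1.33 ± 0.12, adjusted p = 0.000152). The other genes called higher were SOA1, a transporter of sulfur compounds (1.09), and MHT1, a homocysteine methyltransferase (0.55). In each of these 5 both upf1 libraries lay above both WT libraries. The median of the 10 was 0.12. Under ANS 1 of the 10 was higher in upf1 than in WT (BDS1, 0.96 ± 0.11, adjusted p = 0.00606) and 0 were lower, against 4 and 1 at an unadjusted p under 0.05. Of all features, 5.39% were called higher and 1.92% lower there. With ANS in WT, 4 of the 10 were higher and 5 lower on the relative scale (35.8% and 19.3% of all features), but 9 were higher and 0 lower on the deposited scale (90.2% and 0.345%). JLP1 was higher on both (1.67 relative). The S-methylmethionine permease gene MMP1 was at -1.32 relative and 0.35 deposited, the second value not called, and the methyltransferase gene SAM4 was called lower at -0.69 relative and higher at 1.01 deposited. With ANS in upf1, 0 of the 10 were higher and 7 lower on the relative scale, the same numbers as at an unadjusted p under 0.05 (17.4% and 18.3% of all features), but 9 were higher and 0 lower on the deposited scale (88.7% and 0.268%).

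Of 15 genes for methionine, cysteine and S-adenosylmethionine synthesis, 1 rose and 8 fell in upf1 with DMSO relative to WT with DMSO, with a median of -0.33. Of protein-coding genes alone, 21.7% were called higher and 29.6% lower there. The gene that rose was STR2, cystathionine gamma-synthase, with 0.176 and 0.145 in upf1 with DMSO, against 0.0608 and 0.0534 in WT with DMSO (1.21 ± 0.11, adjusted p = 0.000159, limma). SAM2, S-adenosylmethionine synthetase, had 0.709 and 0.635 in upf1 with DMSO, against 1.02 and 0.928 in WT with DMSO (-0.78 ± 0.07, adjusted p = 0.000129), and it has the close paralog SAM1, with which reads may be shared. CYS4, cystathionine beta-synthase, had a change of -0.46 (adjusted p = 0.000833). On the deposited scale 1 of the 15 was called higher (STR2, 1.44) and 1 lower (SAM2, -0.53), where 31.6% and 0.613% of all features were. In WT with ANS against WT with DMSO, 4 of the 15 were called higher and 8 lower on the relative scale (35.8% and 19.3% of all features), those lower including SAM2 (-1.67), MET6, methionine synthase (-1.54), and CYS4 (-1.29). As deposited, 10 were higher and 1 lower (90.2% and 0.345% of all features), CYS4 was called higher (0.42), and SAM2 (0.02) and MET6 (0.16) were not called. Of the 8 glutathione and thioredoxin genes, 0 rose and 6 fell in upf1 with DMSO, with the glutathione transporter gene OPT1 at -0.58, GSH1 at -0.42 and TRX1 at -0.41, while on the deposited scale 0 of the 8 were called in either direction (limma), also at an unadjusted p under 0.05. With ANS 7 of the 8 were lower in WT on the relative scale, with OPT1 at -1.62 and TRX2 at -1.57, and 6 were lower in upf1. The deposited scale had 5 higher and 0 lower in WT, where OPT1 (0.07) and TRX2 (0.13) were not called, and 7 were higher and 0 lower in upf1. The shares over all features were those given for the organic sulfur genes. The relative shares over protein-coding genes alone, also for the organic sulfur genes, were those given for the 10 genes of sulfate uptake and reduction. Between the strains under ANS, 1 of the 15 methionine, cysteine and S-adenosylmethionine genes was called (SAM2, lower, on the relative scale alone) and 0 of the 8 glutathione and thioredoxin genes, 1 of which was lower at an unadjusted p under 0.05. At that unadjusted threshold 1 of the 15 was higher and 5 were lower on the relative scale (limma). Of all features, 5.39% were called higher and 1.92% lower there.

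**Figure D4:**
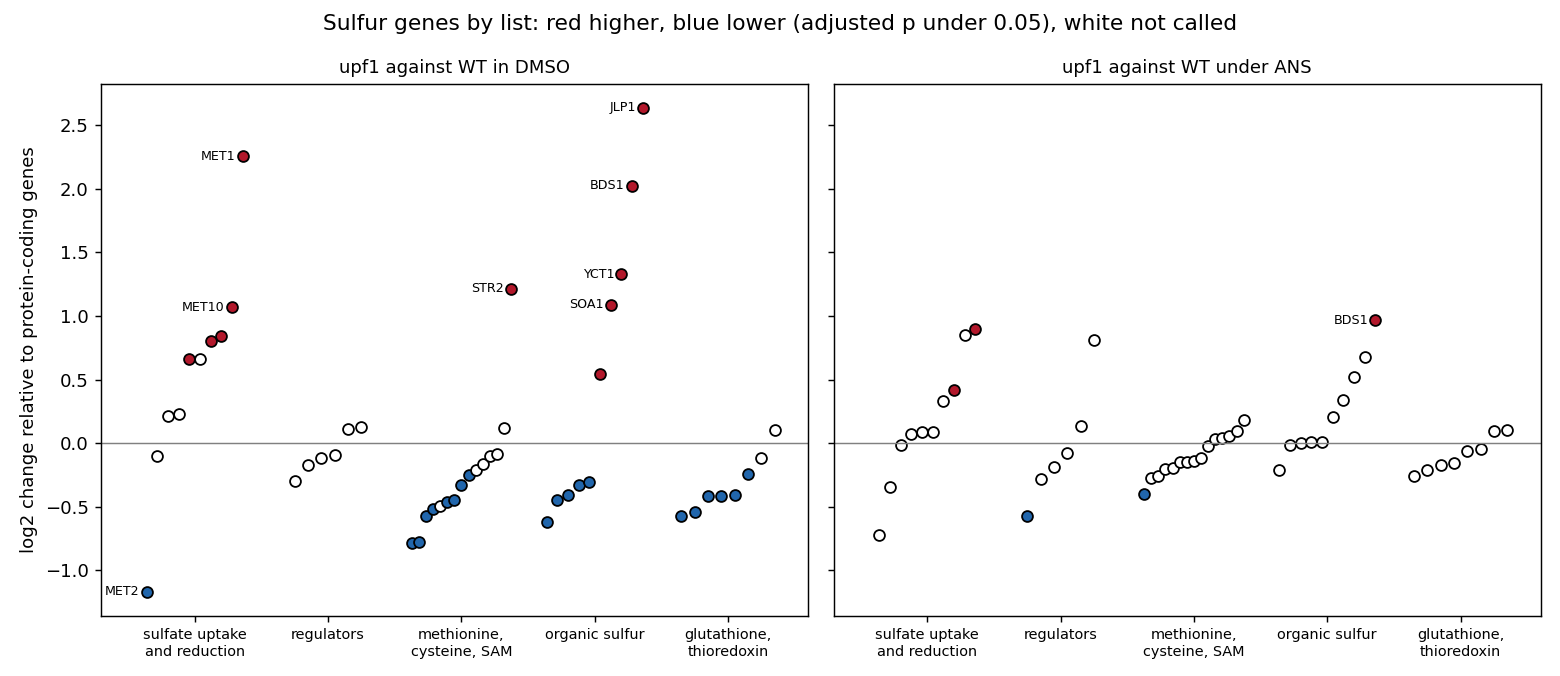
Log2 change relative to protein-coding genes of each gene in the list of 10 and in the 4 lists of other sulfur genes, for upf1 against WT in DMSO (left) and under ANS (right), sorted within a list and filled where called. In DMSO the highest points are JLP1 (2.64), MET1 (2.25) and BDS1 (2.02), MET2 is lowest at -1.17, and no regulator is called.

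The 10 genes did not share a single profile over the 8 libraries. The correlation of each gene with the mean of the other 9, on log2 relative densities, was 0.99 for MET10, 0.95 for MET1 and 0.88 for MET16, but 0.03 for MET5, -0.27 for MET8 and -0.94 for MET2. These are descriptions over 8 libraries in 4 groups, which share each library's scaling. Among 2937 protein-coding features above the median level, the profile nearest to the mean of the 10 was that of YIL165C (r = 0.99). PML1, of the complex that retains unspliced pre-mRNA (0.99), EBS1, whose product has been linked to NMD (0.99), LIH1 (0.99) and ARG8, an enzyme of arginine synthesis (0.99), came next. EBS1 had 1.05 and 0.910 in upf1 with ANS, 0.426 and 0.411 in upf1 with DMSO, 0.695 and 0.917 in WT with ANS, and 0.181 and 0.175 in WT with DMSO.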

How the data were processed

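Reads came from stranded libraries of total RNA, per the labels. The submitters' processing notes name HISAT2 2.2.0, featureCounts 2.0.0, Trim Galore and DESeq2, and the build R64, with no role for each. The authors deposited a density (signal) for each feature and library, and neither its scaling basis nor the handling of multi-mapped reads is given in the sources used here. Each density above 0 came out as a whole number of reads (100% of features, tolerance 0.001), and these reads serve for depth only.

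A pseudocount of 0.00340 (the 5th percentile of positive values) was added before log2, and limma 3.58.1 (R 4.3.3) fitted 1 mean per group to the 8 libraries, with a variance trend and 4 residual degrees of freedom. Tests were two-sided, with Benjamini and Hochberg adjustment over the 11579 features tested and a threshold of 0.05, and 387 features were left out for low values. All 10 genes passed that filter. The scale understates the change of low genes. Relative values come from the same fit after each library was divided by its median ratio over protein-coding genes. The fit was tested on simulated data, with a log2 change of 1 set in 195 of the genes tested. The fit recovered 103 of these 195 genes (52.8%), and 5.50% of its calls were false in that setting. A gene that was not called may therefore still have changed.

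The genes, lists and tests were chosen with earlier results of these data known. Named were all 10 genes, the 6 regulators, the 3 genes with the smallest adjusted p in each other list for ANS in WT, upf1 in DMSO and the interaction, genotype checks, and the 5 features nearest in profile. MHT1 and MUP1 were named outside that rule, after their values were seen. Promoter windows were read from the R64 RefSeq genome. Alternatives were other pseudocounts, no filter, fewer libraries, a replicate block, no variance trend, scaling on the total density, and leaving out each library.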

Additional observations from a re-analysis of the deposited data

Results flagged for a closer look

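For 10 of the genes named the change with ANS differed between upf1 and WT by the test of the interaction (limma, relative to protein-coding genes, ANS change in upf1 minus that in WT). Among the genes of sulfate uptake and reduction these were MET1 (-1.36 ± 0.17, adjusted p = 0.00464), MET3 (-0.73 ± 0.15, adjusted p = 0.0244) and MET10 (-0.65 ± 0.10, adjusted p = 0.00974). Among genes for organic sulfur they were JLP1 (-1.96 ± 0.26, adjusted p = 0.00577), SOA1 (-1.10 ± 0.17, adjusted p = 0.0101), BDS1 (-1.06 ± 0.15, adjusted p = 0.00736) and YCT1 (-0.98 ± 0.17, adjusted p = 0.0124). In methionine and cysteine synthesis they were STR2 (-1.24 ± 0.16, adjusted p = 0.00502), MET6 (0.63 ± 0.11, adjusted p = 0.0124) and SAM2 (0.38 ± 0.10, adjusted p = 0.0467). The methionine permease gene MUP1, named after its values were seen, had 0.62 ± 0.15 (adjusted p = 0.0389). On the deposited scale the interactions of MET10 (-0.86, adjusted p = 0.0604), MET6 (0.41, adjusted p = 0.319), SAM2 (0.16, adjusted p = 0.816) and MUP1 (0.41, adjusted p = 0.308) were not called, and those of the other 7 genes were. The 8 genes with a negative value were also called higher in upf1 with DMSO than in WT with DMSO, and these libraries enter the interaction too. Outside sulfate uptake and reduction and the regulators, genes were named partly for a small adjusted p of the interaction (limma). The number of genes flagged is thus set in part by that choice. Of all features, 0.717% were called higher and 10.4% lower in the interaction, relative to protein-coding genes.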

How the results depend on the processing

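Of 670 values of single genes under other settings, 627 kept their side of the threshold and 6 reversed. Of the rest, 21 were no longer called and 16 became called. Reversed means a change of sign with a call in either fit. A change of sign with no call in either fit is counted as kept. MET14 with ANS in upf1 is such a case (-0.34 relative, 0.38 with scaling on the total density). Of 800 values with a library left out, 743 were kept by the same rule, 49 were no longer called, 8 became called and 0 reversed. The 6 reversals came with scaling on the total density, relative to protein-coding genes: for ANS in WT, MET5 at 0.66 and MET2 at 0.23, and for ANS in upf1, MET10 at 0.57, MET1 at 0.33, MET5 at 0.21 and MET3 at 0.029. With that scaling the number of the 10 genes called was 6 for ANS in upf1 on either scale (10 as deposited and 3 relative in the fit reported), 2 for upf1 under ANS as deposited (1 reported) and 4 for the interaction as deposited (2 reported). For upf1 under ANS as deposited 0 were called with the pseudocount divided by 5, with the replicate block and without the variance trend, and relative to protein-coding genes 1 was called (2 reported) without the trend or with only the libraries compared. For the interaction as deposited 1 was called with 5 times the pseudocount, without the filter, with the replicate block and without the trend. With a library left out, the counts ranged from 0 to 3 for upf1 under ANS and from 0 to 3 for the interaction as deposited, and on the relative scale they were 3 to 6 (ANS in WT), 0 to 2 (upf1 under ANS) and 1 to 3 (interaction). The cause was not tested. Whether the replicate numbers pair the libraries is not known. Deviations from the group means correlated at -0.18 to 0.25 between groups, which cannot settle it with 2 libraries per group. A count-based test was not run: the deposited values are densities that carry a gene length, and the reads recovered from them were used for depth only. Depth limits SUL1 and MET8, with 7 and 30 reads in WT with DMSO. It also limits JLP1, with 9 and 12 reads in the libraries of that group, and MET32, with 12 and 11.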
